A study of Mus musculus with 8 samples.

Results

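Glypicans and syndecans are the main families of heparan sulfate proteoglycans held at the cell surface. The 10 symbols Gpc1 to Gpc6 and Sdc1 to Sdc4 were looked up in the 21165 gene rows of a cortical RNA-seq table, and 9 of them had a row, 5 glypicans and 4 syndecans. Gpc2 was not analysed here. All 9 genes passed the filter on low counts and are among the 12699 genes tested, so none was lost to that filter.

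In both families a core protein carries long chains of heparan sulfate, a sulfated sugar polymer that is built on the core protein in the Golgi and then trimmed and desulfated outside the cell. Glypicans are tied to the outer leaflet of the membrane by a glycolipid (GPI) anchor that the enzyme Notum can cut, whereas syndecans cross the membrane and have a short cytoplasmic tail that binds PDZ proteins. The chains hold fibroblast growth factors, Wnt and Hedgehog proteins, Slit proteins and pleiotrophin near their receptors, and in the developing brain they take part in axon growth, axon guidance and synapse formation.

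The libraries came from cortices of mouse embryos at E18.5, 4 with a constitutive Nuak1 knockout (KO) and 4 wild-type (WT). NUAK1 is a kinase related to AMPK that acts in cortical axon branching. The line is a constitutive null, so the loss of Nuak1 was not limited to neurons, and mutants die around birth. The methods name a floxed Nuak1 tm1a(KOMP)Wtsi line on a C57Bl/6JRj background, and how the null allele was made from it is not given in the sources used here. The labels give 2 males and 2 females among the KO embryos, 1 male and 3 females among the WT embryos and 3 litters shared by the genotypes, but the columns of the count table carry only the genotype and a running number, by which libraries are named here (KO R1, for example).

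Library totals lay between 11027082 and 27014858 counts in KO and between 9643711 and 18940484 in WT. Nuak1 had 14.2 ± 4.35 normalized counts in KO against 1204 ± 260 in WT (mean ± SD, n = 4 each), with the highest KO library at 20.5 and the lowest WT library at 877, so each column matched its genotype. For normalized counts, each library was scaled by TMM to the average effective size of the 8 libraries. Libraries of a genotype differed by more than sampling noise in every pair, with a chi-square per degree of freedom of 5.73 to 15.9. The highest was for WT R2 with WT R4. KO R1 stood apart in its markers of meningeal fibroblasts, the cells of the membranes around the brain. Their summed level was 10448 normalized counts in KO R1, 471 to 650 in the other 3 KO libraries and 367 to 511 in WT. Cortical projection neuron markers summed to 18605 to 20615 normalized counts in KO, 16658 to 18664 in WT R1 to R3 and 12661 in WT R4. The low end of WT thus rests on WT R4. Choroid plexus markers summed to at most 28.2 in any library. In whole tissue, fewer cells of a type and less RNA per cell cannot be told apart.

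Gpc1 and Sdc3 had the highest levels of the 9 genes in WT cortex. On a scale of RPKM (reads per kilobase of exon, scaled by the effective library size), Gpc1 had 29.7 ± 0.923 (SD, n = 4) and Sdc3, the syndecan typical of neurons, 18.3 ± 2.28 (SD, n = 4). Gpc4, a glypican with a known part in synapse formation, followed with 9.48 ± 2.20 (SD, n = 4). Sdc1 with 4.12 ± 0.553 and Sdc2 with 2.86 ± 0.088 came next (SD, n = 4 each). From Gpc1 down to Sdc2, the WT libraries of each gene lay wholly above those of the gene after it, and Sdc2 lay wholly above Gpc5. The last 4 genes could not be ordered, since each overlapped its neighbour. They were Gpc5 at 0.847 ± 0.577, Gpc6 at 0.581 ± 0.0647, Gpc3 at 0.452 ± 0.151 and Sdc4 at 0.351 ± 0.135 (SD, n = 4 each). Exon lengths were the union of exons in an NCBIM37 annotation that is not known to be the one used for counting, so the order depends on that annotation.

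**Figure D1:**
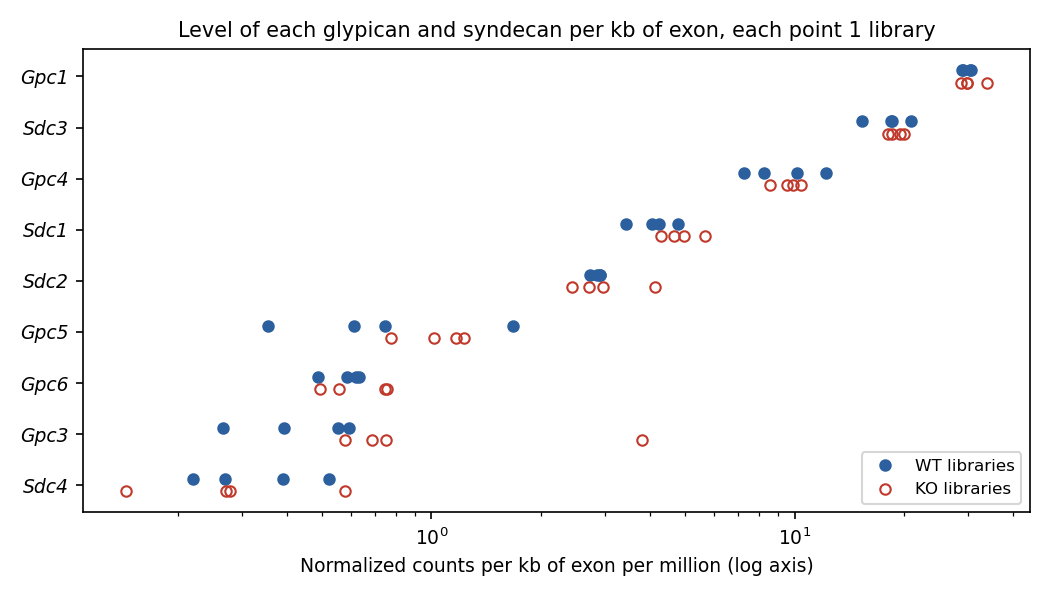
Level of the 9 genes in RPKM, counts per kilobase of exon scaled by the effective library size (log axis), in each WT and KO library, ordered by the WT mean. Gpc1 and Sdc3 lie highest, and the WT libraries of Gpc5, Gpc6, Gpc3 and Sdc4 overlap those of their neighbours at the low end.

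The first question was whether the loss of Nuak1 moved any of these surface proteoglycans. At an adjusted p of 0.05 (edgeR quasi-likelihood test, Benjamini-Hochberg), 0 of the 9 genes differed between genotypes, where 0.0709% of all tested genes did. DESeq2 also called 0 of the 9, and 0.59% of the 11700 genes to which it gave an adjusted p. In edgeR 1 of the 9, Gpc3, had an unadjusted p under 0.05, as did 7.69% of all tested genes. To pick genes shared with cultured neurons the study used a stricter p, which was not applied here. Its wider thresholds were an absolute log2 fold change over 0.25 with an unadjusted p under 0.05, with p from DESeq2. At these thresholds with p from edgeR, as used below unless DESeq2 is named, 1 of 9 was called, against 4.25% of all tested genes. That gene was higher in KO, as were 2.45% of all tested genes, while 0 of 9 were lower, as were 1.8% of all. With DESeq2, 1 of 9, again Gpc3, was called at these thresholds, against 3.85% of the 12685 genes given a p. The normalized counts of KO and WT overlapped for each of the 9 genes, whereas 4.49% of tested genes had no overlap. Without KO R1, 0 of 9 passed the thresholds of the study (3.54% of 12899 tested genes, with 1.81% higher and 1.72% lower) and 0 of 9 had no overlap (6.74%). The fitted log2 fold change was above 0 for 8 genes and below 0 for 1, with a median of 0.10 beside -0.01 for all tested genes, of which 45.6% were above 0.

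**Figure D2:**
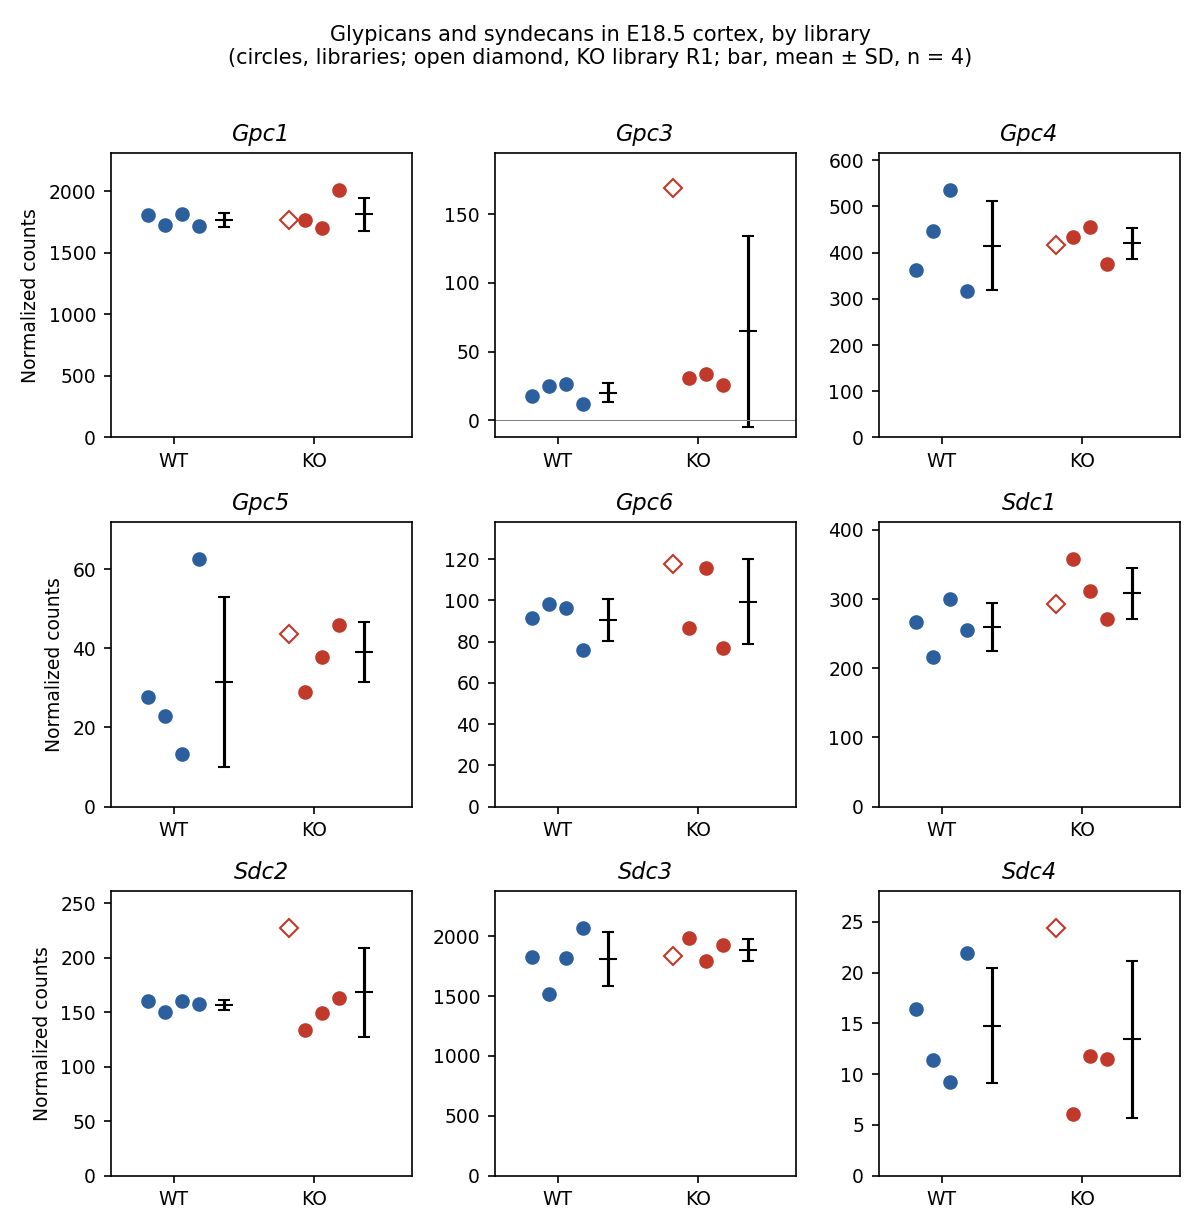
Normalized counts of each gene in the 4 WT and 4 KO libraries, with mean and SD beside them and KO R1 as an open diamond. KO R1 lies apart in Gpc3, at 169 against 25.6 to 33.4 in the other KO libraries, and it is also the highest of the 8 libraries for Gpc6, Sdc2 and Sdc4.

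Among the glypicans, Gpc1 is the family member best known from neurons and their axons. It had 1769, 1771, 1706 and 2009 normalized counts in KO R1 to R4 and 1807, 1724, 1819 and 1714 in WT R1 to R4. All but KO R4 lay within a narrow band, and the genotypes overlapped. The mean was 1814 ± 133 in KO against 1766 ± 54.8 in WT (SD, n = 4 each). KO against WT gave a log2 fold change of 0.04 (standard error 0.06) with a 95% interval of -0.09 to 0.17 and an adjusted p of 0.914 (edgeR quasi-likelihood test, Benjamini-Hochberg). This was the narrowest interval of the 9 genes.

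Gpc4 and Gpc6 are known as astrocyte-secreted factors that promote excitatory synapses, and Gpc4 is also expressed by neural progenitors. Gpc4 had 416, 433, 455 and 375 normalized counts in KO R1 to R4 and 362, 446, 535 and 318 in WT R1 to R4. The WT libraries spread on both sides of the KO libraries. Its log2 fold change was 0.01 (standard error 0.14; 95% interval -0.30 to 0.33), with an exact 2-sided permutation p of 0.914 over the 8 libraries. Gpc6 had 118, 86.7, 116 and 76.9 normalized counts in KO R1 to R4 and 91.5, 98.1, 96.4 and 76.0 in WT R1 to R4. KO R1 and KO R3 were above every WT library, and KO R4 lay near the lowest of them. The log2 fold change of Gpc6 was 0.13 (standard error 0.17; 95% interval -0.25 to 0.50), with an exact permutation p of 0.457.

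Gpc5, which can promote Hedgehog signalling, was low and scattered. Its raw counts were 34, 19, 61 and 68 in KO R1 to R4 and 27, 26, 10 and 37 in WT R1 to R4. As normalized counts these were 43.6, 28.9, 37.7 and 45.9 in KO and 27.7, 22.8, 13.2 and 62.5 in WT. WT R4 was the highest of the 8 libraries, and the other 3 WT libraries lay below every KO library. In the fit the log2 fold change was 0.38 (standard error 0.38; 95% interval -0.46 to 1.22), with an adjusted p of 0.861 (edgeR quasi-likelihood test, Benjamini-Hochberg). Without WT R4 the log2 fold change was 0.87 with an unadjusted p of 0.0109 from edgeR's test, so that 1 library decides whether Gpc5 passes the thresholds of the study.

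Gpc3 restrains Hedgehog signalling and body growth, and its loss in people causes an overgrowth syndrome. Its raw counts were 132, 20, 54 and 38 in KO R1 to R4 and 17, 28, 20 and 7 in WT R1 to R4. As normalized counts these were 169, 30.4, 33.4 and 25.6 in KO and 17.5, 24.5, 26.4 and 11.8 in WT. KO R1 was 5.56 times the median of the other KO libraries. KO R2 and KO R3 also lay above every WT library, while KO R4 was below WT R3. From the raw counts, the 95% Poisson interval on the normalized scale was 141 to 201 for KO R1 and 16.1 to 40.8 for WT R3, the highest WT library. Such intervals cover counting error only.

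The mean of Gpc3 was 64.6 ± 69.7 in KO against 20.1 ± 6.71 in WT (SD, n = 4 each). The fitted difference was 3.04-fold (95% interval 1.18 to 7.82), or 1.60 on the log2 scale (standard error 0.62), with an unadjusted p of 0.0253 and an adjusted p of 0.612 (edgeR quasi-likelihood test, Benjamini-Hochberg). By p it ranked 524 among the 12699 tested genes. Without KO R1, the KO mean was 29.8 ± 3.93 (SD, n = 3) and the difference 1.46-fold (95% interval 0.94 to 2.27), with an unadjusted p of 0.0841 and an adjusted p of 0.878 in the same test. From all 8 libraries, DESeq2's Wald test gave Gpc3 a log2 fold change of 1.68 with an unadjusted p of 0.0041 and an adjusted p of 0.232. The exact 2-sided permutation p over the 8 libraries was 0.0571, where 0.0286 is the smallest that 4 against 4 can give. In 5 of the 8 fits that leave out a single library, Gpc3 still passed the thresholds of the study. The call was lost without KO R1, without WT R1 (log2 fold change 1.53, unadjusted p = 0.0581 from edgeR's test) and without WT R4 (1.45, unadjusted p = 0.0524 from the same test).

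The level of Gpc3 was high in the library with the meningeal markers. Of the 11 meningeal fibroblast markers, 10 were highest in KO R1, and the remaining one, Twist1, was at 0 in all 8 libraries. Only 6 of the 11 passed the filter on low counts. Foxc1 and Foxd1 were near the floor, with 10.2 and 3.84 normalized counts in KO R1. The collagen gene Col1a1 had 1199 normalized counts in KO R1 and at most 43.8 elsewhere. Ptgds, the prostaglandin D synthase of the leptomeninges, had 1786 against at most 62.2, and Dcn, which encodes decorin, 662 against at most 38.3. KO R1 was also the highest library in summed endothelial markers, with 6956 normalized counts against 4953 to 5691 in the other KO libraries and 5307 to 5513 in WT. Pericyte markers summed to 2246 in KO R1 against 1461 to 1775 and 1567 to 1696, and microglial markers to 1104 against 554 to 786 and 544 to 774, in the other KO and the WT libraries. Their part in the level of Gpc3 was not tested.

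**Figure D3:**
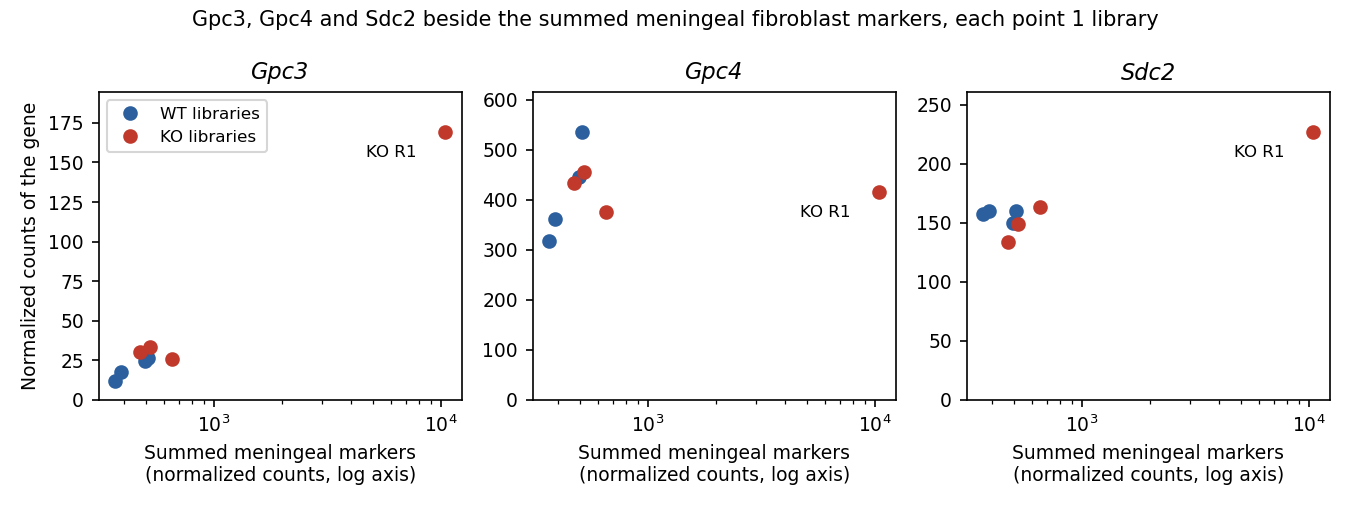
Normalized counts of Gpc3, Gpc4 and Sdc2 against the summed level of 11 meningeal fibroblast markers (log axis) in the 8 libraries. KO R1 lies alone at 10448 on the marker axis, and the other 7 libraries lie between 367 and 650.

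By position, Gpc3 lies beside Gpc4 on the X chromosome. In NCBIM37 (mm9) the annotation places Gpc4 at chrX:49406198-49518429 and Gpc3 at chrX:49625603-49967127, both on the minus strand and 107.2 kb apart. Gpc3 in KO R1 was 5.56 times the median of the other KO libraries and Gpc4 0.961 times, so the neighbours did not share the high value of that library. Since the columns carry no sex, the part of sex in these X-linked genes was not tested. Gpc5 and Gpc6 are the other adjacent pair, at chr14:115491437-116923659 and chr14:117324519-118378751 on the plus strand and 400.9 kb apart. In WT R4, where Gpc5 was highest at 62.5 normalized counts, Gpc6 was at its lowest, 76.0. The remaining 5 genes lie alone, with Gpc1 at chr1:94728222-94756775, Sdc1 at chr12:8778129-8800521, Sdc2 at chr15:32850478-32964485, Sdc3 at chr4:130348452-130382234 and Sdc4 at chr2:164249747-164269387. None of the 9 lies on chromosome 10, which holds Nuak1.

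Among the syndecans, Sdc3 (N-syndecan) is a neuronal receptor of pleiotrophin. It had 1833, 1984, 1788 and 1928 normalized counts in KO R1 to R4 and 1830, 1514, 1821 and 2064 in WT R1 to R4. The lowest and the highest of the 8 libraries were both WT. Its log2 fold change was 0.06 (standard error 0.08; 95% interval -0.12 to 0.25), with an adjusted p of 0.903 (edgeR quasi-likelihood test, Benjamini-Hochberg).

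Sdc1, a co-receptor for growth factors that is best known from epithelia and is also found in neural progenitors, was the syndecan with the lowest p. It had 293, 357, 311 and 270 normalized counts in KO R1 to R4 and 266, 216, 300 and 255 in WT R1 to R4. Each KO library lay above 3 of the 4 WT libraries, and WT R3 lay above KO R1 and KO R4. The mean was 308 ± 36.8 in KO against 259 ± 34.8 in WT (SD, n = 4 each), with a log2 fold change of 0.25 (standard error 0.12; 95% interval -0.02 to 0.51). The unadjusted p was 0.0643 and the adjusted p 0.681 (edgeR quasi-likelihood test, Benjamini-Hochberg), and the exact permutation p was 0.114. Without WT R3 the log2 fold change was 0.33 with an unadjusted p of 0.0211 from edgeR's test, and without KO R4 it was 0.31 with 0.0354, so that Sdc1 passed the thresholds of the study in those fits. Without KO R1 it was 0.28 with an unadjusted p of 0.0618 from the same test.

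Sdc2, known for its part in dendritic spine formation and also strong in mesenchymal cells, varied little among WT libraries. It had 227, 134, 149 and 163 normalized counts in KO R1 to R4 and 160, 150, 160 and 157 in WT R1 to R4. KO R1, the library with the meningeal markers, was 1.52 times the median of the other KO libraries, and the other 3 lay on both sides of WT. The log2 fold change was 0.10 (standard error 0.15; 95% interval -0.24 to 0.44) with all libraries and -0.06 (standard error 0.11) without KO R1.

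Sdc4, which joins integrins at focal adhesions, had few counts. Its raw counts were 19, 4, 19 and 17 in KO R1 to R4 and 16, 13, 7 and 13 in WT R1 to R4. As normalized counts these were 24.3, 6.08, 11.8 and 11.5 in KO and 16.4, 11.4, 9.25 and 22.0 in WT. KO libraries held both the highest and the lowest value, and KO R1 was 2.12 times the median of the other KO libraries. Its log2 fold change was -0.12 (standard error 0.42), and its 95% interval of -1.03 to 0.80 was the widest after that of Gpc3.

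**Figure D4:**
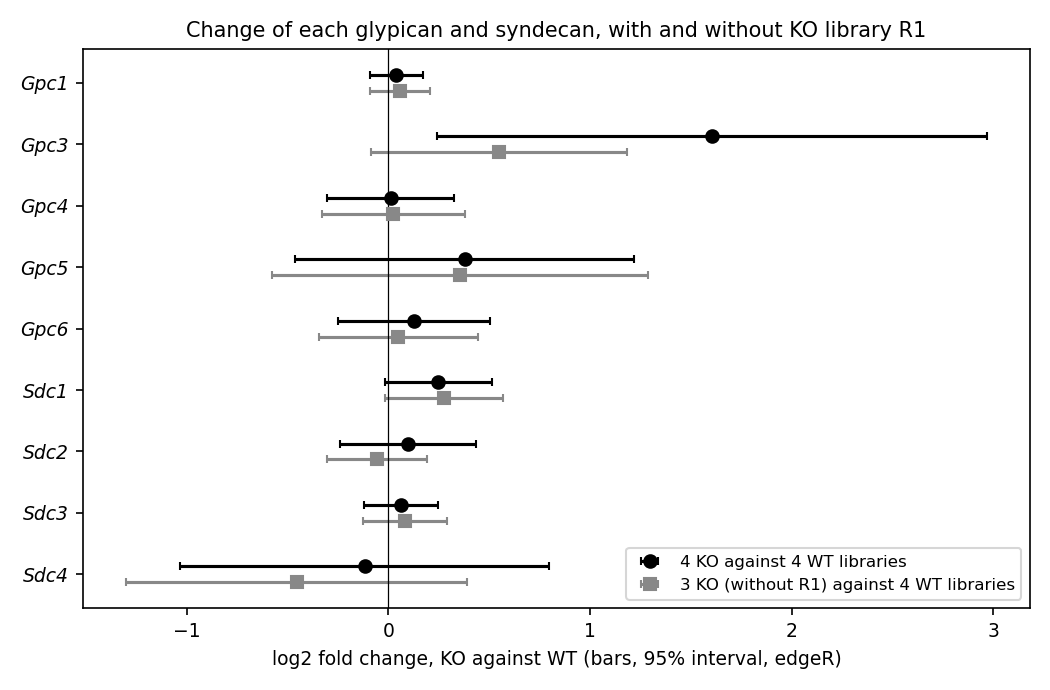
Log2 fold change of KO against WT for the 9 genes with its 95% interval, from all 8 libraries and without KO R1. The interval of Gpc3 spans 0.24 to 2.97 with all libraries and reaches below 0 without KO R1, and the intervals of the other 8 genes include 0.

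Summed by family, glypicans had 2437 ± 101 normalized counts in KO against 2323 ± 127 in WT (SD, n = 4 each), with an exact permutation p of 0.143. Syndecans had 2373 ± 90.1 and 2238 ± 253 (SD, n = 4 each), with an exact permutation p of 0.457. Gpc3 took 6.72% of the glypican counts of KO R1, 1.24% ± 0.210 of those of the other KO libraries (SD, n = 3) and 0.855% ± 0.253 of those of WT (SD, n = 4). Sdc2 took 9.54% of the syndecan counts of KO R1 and 7.06% ± 0.670 of those of WT (SD, n = 4). These shares are not corrected for gene length and describe each gene across libraries.

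The genes whose pattern over the 8 libraries was most like that of Gpc3 were sought among the 10943 other tested genes with a mean of at least 50 normalized counts. The highest Pearson r of log2(normalized count + 1) were 0.982 for Igf2 (Spearman rho 0.905), a fetal growth factor gene, 0.968 for Uaca (0.738), 0.967 for Mrpl15 (0.714), a protein of the mitochondrial ribosome, 0.965 for Ogn (0.810), which encodes osteoglycin of the extracellular matrix, and 0.963 for Utrn (0.905), which encodes utrophin. Without KO R1 and WT R4, the libraries farthest from the median of Gpc3, r over the other 6 was 0.779 for Igf2, 0.633 for Uaca, 0.813 for Mrpl15, 0.907 for Ogn and 0.767 for Utrn. Over those 6 libraries the ranks among the same genes were 35 for Ogn, 144 for Mrpl15, 204 for Igf2, 232 for Utrn and 655 for Uaca. The points share their libraries and genotype, and Igf2 is also one of the 11 meningeal markers, with 618 normalized counts in KO R1 and at most 153 elsewhere.

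The next question was whether the genes that build, modify, release and read heparan sulfate differed. Of 85 such genes in 7 lists, 74 were tested. At the thresholds of the study 5 were higher in KO, 2 were lower and 67 did not pass, beside 2.45% of all tested genes higher and 1.8% lower. By edgeR's adjusted p, 0 of the 74 passed, and by DESeq2 3 did (Ptn, Sulf1 and Slit1), where DESeq2 called 69 of all genes and edgeR 9. The same 3 genes were those with no overlap between the genotypes, which is near the 4.49% of all tested genes without overlap. Without KO R1, 3 were higher and 2 were lower at the thresholds of the study, beside 1.81% and 1.72% of all genes tested in that fit.

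Ligands of heparan sulfate had 1 gene higher and 2 lower of 15 tested, with a median log2 fold change of 0.11 (all tested genes, -0.01). The gene that was higher was Ptn, which encodes pleiotrophin, a ligand of Sdc3. Ptn had 15209, 11398, 14035 and 14684 normalized counts in KO R1 to R4 and 9702, 8237, 7280 and 9528 in WT R1 to R4. Every KO library lay above every WT library. The difference was 1.59-fold (95% interval 1.35 to 1.88), a log2 fold change of 0.67 (standard error 0.11) with an adjusted p of 0.0645 (edgeR quasi-likelihood test, Benjamini-Hochberg). Sdc3, a receptor of pleiotrophin, had a log2 fold change of 0.06 in the same fit.

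Slit1 and Slit3, guidance cues that repel axons through Robo receptors and bind heparan sulfate, were lower in KO at the thresholds of the study. Slit1 had 1462, 1926, 1420 and 1651 normalized counts in KO R1 to R4 and 2146, 2004, 2366 and 2040 in WT R1 to R4. No library overlapped, and the log2 fold change was -0.41 (standard error 0.09), with an adjusted p of 0.307 (edgeR quasi-likelihood test, Benjamini-Hochberg). Slit3 had 69.2, 66.9, 80.4 and 77.6 normalized counts in KO R1 to R4 and 134, 65.7, 140 and 284 in WT R1 to R4. WT R2 lay below every KO library, and WT R4 was the highest of the 8. Its log2 fold change was -1.03 (standard error 0.35), with an adjusted p of 0.551 (edgeR quasi-likelihood test, Benjamini-Hochberg). Without WT R4 it was -0.59, and without WT R2 -1.30. Slit2 had a log2 fold change of -0.24 (standard error 0.23) and an adjusted p of 0.854 from the same test and was named after its values were seen.

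Among the genes that release, edit and degrade the chains, 1 of 11 tested was higher and 0 were lower, with a median of 0.04. That gene was Sulf1, an extracellular enzyme that removes 6-O-sulfate groups from finished heparan sulfate. Sulf1 had 118, 83.6, 207 and 153 normalized counts in KO R1 to R4 and 83.2, 54.3, 58.1 and 70.9 in WT R1 to R4. The lowest KO library lay just above the highest WT library, and that separation was lost under other filters, either none at all or a minimum of 10 counts in every library. The difference was 2.15-fold (95% interval 1.45 to 3.19), a log2 fold change of 1.11 (standard error 0.26) with an adjusted p of 0.316 (edgeR quasi-likelihood test, Benjamini-Hochberg). Without KO R1 the log2 fold change of Sulf1 was 1.20.

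Chain modification had 2 of 13 tested genes higher and 0 lower, with a median of -0.0010. Hs6st2 adds the 6-O-sulfate groups that Sulf1 removes. It had 738, 576, 702 and 721 normalized counts in KO R1 to R4 and 579, 610, 437 and 368 in WT R1 to R4. KO R2 lay below WT R1 and WT R2, and the other KO libraries lay above all of WT. Its log2 fold change was 0.45 (standard error 0.15), with an adjusted p of 0.533 (edgeR quasi-likelihood test, Benjamini-Hochberg). Hs3st1, which adds 3-O-sulfate groups, had 121 ± 13.5 normalized counts in KO against 92.2 ± 17.0 in WT (SD, n = 4 each), with a log2 fold change of 0.38 (standard error 0.15) and an adjusted p of 0.630 from the same test. Without KO R1 its unadjusted p was 0.0601 by edgeR's test, and Hs3st1 no longer passed the thresholds of the study.

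Chain assembly had 1 of 10 tested genes higher and 0 lower, with a median of -0.0025. It was Extl2, a glycosyltransferase acting on the linkage region, with 303 ± 32.9 normalized counts in KO against 254 ± 34.4 in WT (SD, n = 4 each). The log2 fold change was 0.26 (standard error 0.12) with an unadjusted p of 0.0430 from edgeR's test, and without KO R1 it was 0.23 with 0.0925.

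**Figure D5:**
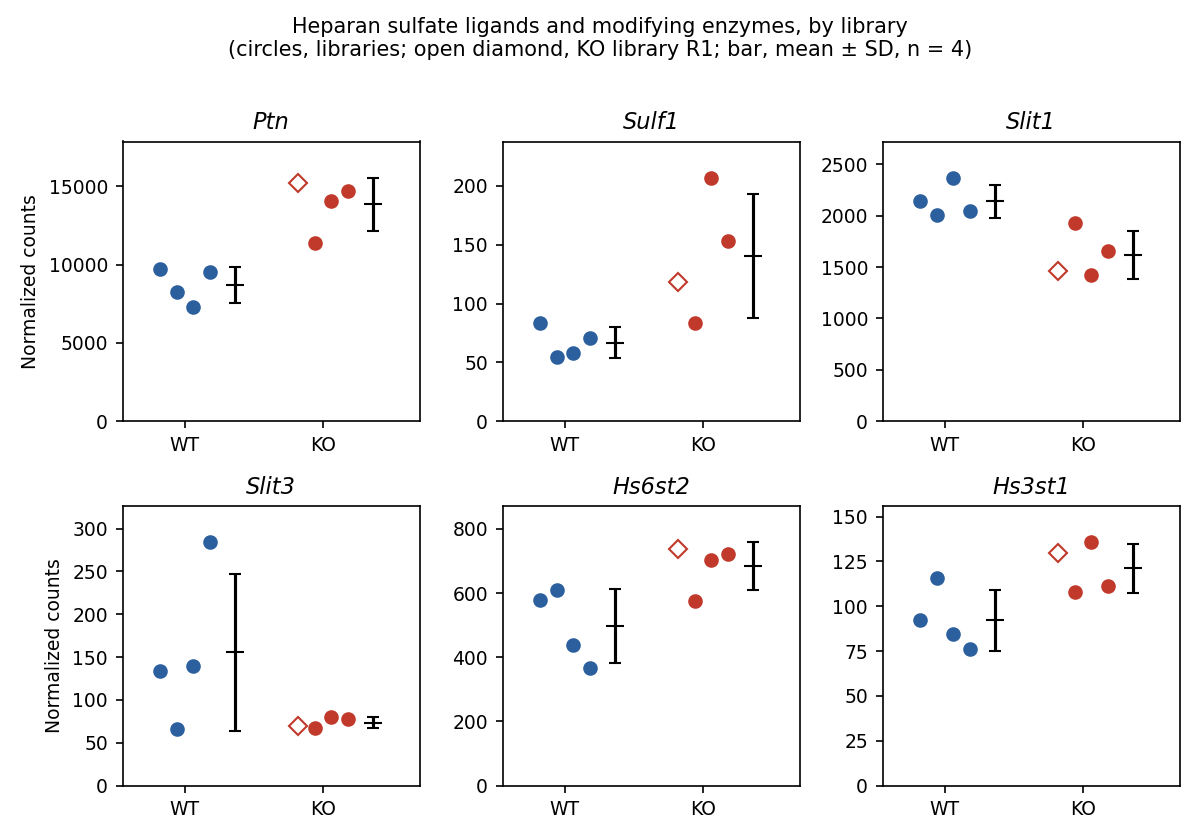
Normalized counts in each WT and KO library of Ptn, Sulf1, Slit1, Slit3, Hs6st2 and Hs3st1, with mean and SD beside them and KO R1 as an open diamond. Ptn, Sulf1 and Slit1 have no overlap between the genotypes, in Sulf1 by 83.6 against 83.2, and the other 3 genes overlap.

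Other heparan sulfate proteoglycans had 0 of 5 tested genes past the thresholds in either direction. Their median log2 fold change was 0.31 with all libraries and -0.04 without KO R1, beside -0.01 and -0.00032 for all tested genes. Hspg2, which encodes perlecan of the vascular basement membrane and had the smallest p of the list, had 1213, 736, 813 and 818 normalized counts in KO R1 to R4 and 742, 598, 811 and 731 in WT R1 to R4. KO R1 stood above the rest, and the log2 fold change of Hspg2 was 0.31 (unadjusted p = 0.0582 from edgeR's test) with that library and 0.15 without it. Col18a1, the collagen of endostatin, and Tgfbr3, the betaglycan gene, both chosen after their values were seen, fitted the same description. KO R1 was 3.29 times the median of the other KO libraries for Col18a1 and 4.07 times for Tgfbr3, and their log2 fold changes without it were -0.04 and -0.05. For Agrn and Cd44, the remaining genes of the list, KO R1 was 0.919 and 1.01 times that median and did not stand out. The part of the meningeal markers of that library in these values was not tested.

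Receptors and partners had 0 of 13 tested genes past the thresholds in either direction, with a median of -0.02. Robo2, a Slit receptor, had the smallest p, with 8085 ± 341 normalized counts in KO against 6514 ± 1571 in WT (SD, n = 4 each) and a log2 fold change of 0.31 (standard error 0.14; unadjusted p = 0.0522 from edgeR's test). WT R4 was its lowest library at 4459 normalized counts, and without WT R4 the log2 fold change was 0.17. Adaptors of the syndecan tail had 0 of 7 past the thresholds, with a median of -0.02. Sdcbp encodes syntenin, the PDZ protein that binds the tails of syndecans. It had 2480 ± 259 normalized counts in KO against 2141 ± 202 in WT (SD, n = 4 each), and its log2 fold change of 0.21 (standard error 0.09; unadjusted p = 0.0313 from edgeR's test) was under the fold change threshold. Without KO R1, its highest library, the log2 fold change of Sdcbp was 0.15 with an unadjusted p of 0.0926 from edgeR's test.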

How the data were processed

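Poly-A RNA of 8 cortices was sequenced as stranded paired-end libraries. According to the methods and the submitters' processing notes, Cutadapt 1.13 and Prinseq trimmed the reads, TopHat2 2.0.13 (with Samtools 0.1.19) placed them on mm9, HTSeq-count assigned them to genes, and the authors deposited whole-number counts without normalization. The annotation, version and strand setting of HTSeq-count are not given in the sources used here, and reads shared by near-identical genes may be lost.

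The counts were fitted with edgeR 4.0.16 in R 4.3.3 (filterByExpr, TMM, quasi-likelihood test, genotype alone) on the whole table, and the procedure was tested on simulated data. A standard error is the log2 fold change divided by the square root of F, in absolute value. Alternatives were DESeq2 1.42.0, its size factors within edgeR, no filter, at least 10 counts in every library, each library left out and, for levels, CPM of the unscaled totals. The labels name 8 separate embryos, which columns could not be tied to, so libraries were grouped by genotype alone.

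The genes and lists were chosen with earlier results of these data known. Besides the glypicans, the syndecans, Nuak1 and markers that moved with Gpc3, the genes named are, in each pathway list, those with an unadjusted p under 0.05 or else the smallest p, and the 5 genes most like Gpc3. Slit2, Col18a1 and Tgfbr3 were added after their values were seen, and Agrn and Cd44 complete their list. Exon lengths and positions come from an annotation of NCBIM37.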

Additional observations from a re-analysis of the deposited data

Results flagged for a closer look

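In each genotype, the distance of the highest or lowest library to its nearest neighbour was divided by the range of the 4 libraries, and a ratio above Dixon's 95% critical value was taken as a library far from the others. This was done for 31 genes whose levels are given in the text and for 12 summed levels of the families and marker lists, 86 groups of 4 libraries in all, of which 18 belong to glypicans and syndecans. For groups not chosen by their values, chance alone gives about 1 in 20. Several of these genes were named for values that were high in KO R1. The count of groups apart can therefore not be set against that rate. In 14 groups a library lay apart, and in 12 of them it was KO R1.

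Among glypicans and syndecans it was Gpc3, with 169 normalized counts in KO R1, 33.4 in the nearest KO library and a ratio of 0.946. Among the heparan sulfate proteoglycans Col18a1 had 657 normalized counts in KO R1 against 252 (ratio 0.833), and Tgfbr3 had 73.0 against 18.2 (ratio 0.924). The summed meningeal fibroblast markers had 10448 against 650 (ratio 0.982), with Col1a1 at 1199, Ptgds at 1786 and Dcn at 662 in KO R1. The genes chosen for their likeness to Gpc3 also lay apart in KO R1, with 618 for Igf2, 396 for Uaca, 896 for Mrpl15, 204 for Ogn and 668 for Utrn, which that choice favours. In other libraries, Slit2 had 511 normalized counts in KO R2 against 416 (ratio 0.852), and Utrn had 535 in WT R3 against 494 (ratio 0.850). Whether the values of KO R1 are linked was not tested.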

How the results depend on the processing

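No paired analysis was possible because the table names its libraries by neither litter nor embryo nor sex. Leaving out each library in turn turned the direction of 5 small log2 fold changes. They ranged from -0.015 to 0.069 for Gpc1, -0.082 to 0.16 for Gpc4, -0.056 to 0.20 for Sdc2, -0.015 to 0.14 for Sdc3 and -0.46 to 0.090 for Sdc4. Sdc4 was not tested without WT R1, and neither Gpc3 nor Sdc4 had at least 10 counts in every library. The thresholds of the study were passed by 2 glypicans and syndecans with no filter (Gpc3 and Sdc1), by 0 with at least 10 counts in every library, and by 0 to 2 with a library left out. The number with no overlap then ranged from 0 to 2. It was 2 without WT R3, where 792 of all 12942 tested genes had no overlap. Of all tested genes, an adjusted p of 0.05 was passed by 9 with edgeR, 69 with DESeq2 and 2 to 11 with a library left out. The thresholds of the study were passed by 716 of 16524 with no filter (4.33%) and 502 of 11973 with at least 10 counts (4.19%). With a library left out it was 426 of 12942 (3.29%, without WT R3) to 847 of 12887 (6.57%, without WT R4). No overlap was then found for 765 of 12677 (without KO R3) to 1539 of 12887 (without WT R4). Of the heparan sulfate lists, an adjusted p of 0.05 was passed by 3 genes with DESeq2, 1 with no filter (Ptn) and 0 to 1 with a library left out (Ptn, without KO R2). At the thresholds of the study 9 of 84 tested were higher with no filter, and 3 to 8 of 74 with a library left out. It was 3 without KO R1 or KO R3 and 8 without KO R2. The number lower was 2 to 6, with 6 without WT R2. Of all tested genes, in either direction, 4.33% passed with no filter. The share was 3.54% without KO R1 (1.81% higher and 1.72% lower), 3.71% without KO R3, 5.35% without KO R2 and 4.93% without WT R2. Apart from the fit without KO R1, these shares are not split by direction. They are therefore no like background for the list genes counted as higher or lower. What caused the shifts in these numbers was not tested. The log2 fold change of Ptn ranged from 0.60 to 0.77 over the libraries left out, that of Sulf1 from 0.85 to 1.28, that of Slit1 from -0.49 to -0.35 and that of Slit3 from -1.30 to -0.59. Without KO R1 the direction turned for Col18a1 (-0.037 to 0.75) and Tgfbr3 (-0.050 to 0.95). Depth limits Gpc3, Gpc5 and Sdc4, whose counts fell to 7, 10 and 4 in the lowest library.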
